A study of Mus musculus with 12 samples.

Results

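The genes of collagen VI (Col6a1, Col6a2 and Col6a3) and of the fibril-associated collagens XII, XIV and XVI (Col12a1, Col14a1 and Col16a1) were followed in RNA sequencing of 10T1/2 cells. These are 6 genes of the 56748 in the count table, chosen by symbol, with each symbol on 1 row. The group was assembled with the results of these same libraries already known, so the levels and differences that follow describe the 6 genes and do not support the choice. Of the 6 genes, 5 passed the filter on low counts, and Col14a1 did not.

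10T1/2, spelled CH310T1/2 in the labels, is an immortal line from mouse embryos whose cells can turn into fat, bone, cartilage or muscle in culture, and its genotype is given as WT. All cells were starved of serum, held for 1 h in suspension and then cultured for 18 h on hydrogels of 12 kPa, whose coating was type I collagen (0.05 mg/ml). The sources differ on the serum: the labels put 0.5% in the suspension step, while the methods name serum-free medium there and 0.5% on the gels. In the col1 group (labelled Control) the collagen was polymerized alone. In the col1-ACLP group (labelled M-ACLP) it was polymerized with 30 nM recombinant aortic carboxypeptidase-like protein (ACLP), a secreted collagen-binding protein. In the col1-ACLP+SB group (labelled M-ACLP+SB) the cells on the same ACLP coating also received SB431542, an inhibitor of the TGFβ receptor kinase ALK5, from seeding on. There were 4 libraries per group, 12 in all, which the study describes as biological replicates, and there were no cells on col1 with the inhibitor. The model is a single line on a soft synthetic gel, and the time is a single one.

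Collagen VI is built from a chain of each of its main genes. The chains join inside the cell into a heterotrimer, the trimers pair and pair again, and after secretion they line up end to end as beaded microfibrils around cells. Collagens XII, XIV and XVI have short triple helices broken by non-helical stretches, sit on the surface of larger collagen fibrils or microfibrils, and are known for their place in tendon, skin and other tissues under load.

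The total count per library ran from 32264826 to 42543707 in col1, from 29246154 to 36322113 in col1-ACLP and from 29995224 to 52201922 in col1-ACLP+SB. Of 8 mesenchymal markers all 8 were detected, and their summed level was 6619 to 6876 CPM (counts scaled to a common library total) in col1, 6001 to 6353 CPM in col1-ACLP and 6116 to 6397 CPM in col1-ACLP+SB. In col1-ACLP against col1, 4 of these 8 fell at an adjusted p under 0.05, beside 8.41% of all tested genes, among them Pdgfra, a growth factor receptor (log2 fold change -0.76). Of the markers of other cell types, Epcam (epithelium) and Adgre1 (macrophages) were at 0 in all 12 libraries, Kdr (endothelium) in 11 and Ptprc (leukocytes) in 10. The others were less empty: Itgam (leukocytes) was at 0 in 9, Krt14 and Krt5 (epithelium) in 6 and 5, and Cdh5 and Pecam1 (endothelium) in 4 and 1. Cdh1, Tek and Cd68 were detected in every library. The summed level of 4 markers, in CPM over col1, col1-ACLP and col1-ACLP+SB in turn, was 1.88 to 3.32, 2.60 to 4.04 and 2.05 to 3.73 for epithelium. It was 5.06 to 8.30, 7.52 to 9.85 and 4.30 to 6.41 for endothelium, and 9.14 to 10.0, 5.32 to 8.72 and 7.26 to 9.80 for leukocytes, and came mostly from Cdh1, Tek and Cd68. These 3 were the markers of other cell types that passed the filter. Cd68 fell in col1-ACLP against col1 (log2 fold change -0.49, edgeR adjusted p = 0.0284) and Tek fell in col1-ACLP+SB against col1-ACLP (-0.86, edgeR adjusted p = 0.0116), and Cdh1 passed in neither. The part of these shifts in the results was not tested. In bulk RNA, fewer cells of a kind and less RNA per cell cannot be told apart, and this holds for every difference below.

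Coordinates are those of the count table, which lie on GRCm39. Col6a1 (ENSMUSG00000001119) lies on chromosome 10 from 76544626 to 76562002, and Col6a2 (ENSMUSG00000020241) on the same chromosome from 76431596 to 76459464. Both are on the minus strand, with 85162 bases between them. Col6a3 (ENSMUSG00000048126) lies apart from them on chromosome 1, from 90693645 to 90771693, also on the minus strand. Col12a1 (ENSMUSG00000032332) lies on chromosome 9 from 79506273 to 79626113, minus strand. Col14a1 (ENSMUSG00000022371) lies on chromosome 15 from 55171146 to 55384199, and Col16a1 (ENSMUSG00000040690) on chromosome 4 from 129941633 to 129993076, both on the plus strand. Reads from annotated genes that overlap the members by these coordinates cannot be shown to be apart from them without the strand setting. Those genes held at most 25 counts each over all 12 libraries. For Col14a1 this is not small, since Gm49257 and Gm18787, which overlap it, held 25 and 23 counts against its own 93. By the start of its canonical transcript, 129941154, Col16a1 also overlaps Gm12963 on the opposite strand, which ends at 129941567 and held 1260 counts.

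The 250 bases before the annotated start of the canonical transcript are shown for the pair of neighbouring genes that were lower on ACLP and for Col12a1, which was higher, since these 3 genes carry the results below. They were read from GRCm39 with the GENCODE transcript starts and are written 5′ to 3′ on the minus strand, that of the genes. Capitals mark matches on either strand to motifs searched by their letters: GGAATG (bound by TEAD factors) in Col6a1, CCAAT and GGGCGG (a GC box, seen here as its reverse complement) in Col6a2, and GGGCGG in Col12a1.
Col6a1, chr10:76562003-76562252: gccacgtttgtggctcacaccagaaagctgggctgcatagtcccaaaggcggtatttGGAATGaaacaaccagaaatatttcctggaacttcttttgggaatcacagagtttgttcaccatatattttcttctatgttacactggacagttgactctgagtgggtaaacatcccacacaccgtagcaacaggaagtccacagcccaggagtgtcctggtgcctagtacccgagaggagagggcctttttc
Col6a2, chr10:76459550-76459799: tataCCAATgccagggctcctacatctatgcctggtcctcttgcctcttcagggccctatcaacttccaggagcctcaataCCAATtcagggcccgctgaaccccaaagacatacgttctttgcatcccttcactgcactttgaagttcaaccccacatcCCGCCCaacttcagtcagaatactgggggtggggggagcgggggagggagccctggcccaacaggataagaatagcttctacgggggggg
Col12a1, chr9:79626136-79626385: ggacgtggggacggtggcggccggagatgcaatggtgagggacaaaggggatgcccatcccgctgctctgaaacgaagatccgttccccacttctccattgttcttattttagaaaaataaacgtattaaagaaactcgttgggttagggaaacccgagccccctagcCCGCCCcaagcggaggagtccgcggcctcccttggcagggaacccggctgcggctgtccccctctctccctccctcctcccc

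The stretch before Col6a1 held GGAATG 193 bases before the start, which 12.1% of 21770 promoters of the same length also held. That before Col6a2 held CCAAT at 246 and 169 bases and GGGCGG at 90 bases before the start, and that before Col12a1 held GGGCGG at 82 bases. CCAAT was found in 36.5% and GGGCGG in 36.3% of all promoters. The SMAD letters CAGAC, found in 41.3% of promoters, were present at 84 and 60 bases before the start of Col6a3 and before Col14a1, and in none of the other 4 members. TATAAA (11.9% of promoters) was found before Col14a1 only, and the AP-1 letters TGANTCA (6.17%) and the CArG box (1.4%) before no member. Col6a1 and Col6a2 shared no motif of the 7 searched in this window, and Col16a1 had none. The letters of these motifs did not overlap in the stretches shown. A match describes letters and not a bound site.

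Per length, Col6a1 was the most abundant of the 6 in every group, followed by Col6a2, Col6a3, Col12a1, Col16a1 and Col14a1. In col1, Col6a1 stood at 1521 ± 52.0 RPKM (CPM per kilobase of gene length; SD, n = 4), Col6a2 at 507 ± 14.1 RPKM and Col6a3 at 118 ± 6.39 RPKM. Among the 16465 genes tested, these levels ranked 10, 41 and 299. The fibril-associated genes were far lower, with Col12a1 at 28.3 ± 1.49 RPKM (rank 1652) and Col16a1 at 21.0 ± 0.67 RPKM (rank 2299) in col1. The lowest Col12a1 value in col1, 27.2 RPKM, was above the highest Col16a1 value, 21.7 RPKM, and no pair of neighbours in this order overlapped in any group. By rank, Col6a1 stood 13 on ACLP and 14 on ACLP with the inhibitor, and Col12a1 stood 800 and 1104.

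**Figure D1:**
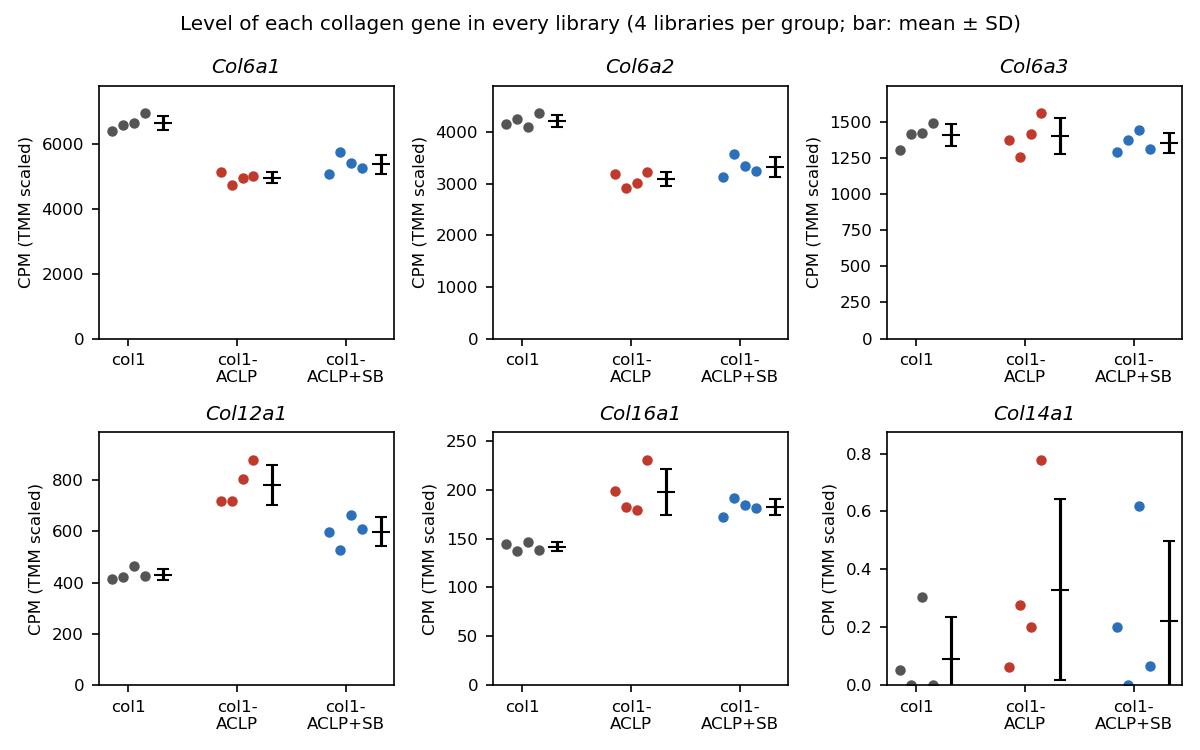
CPM scaled by TMM factors (linear axis from 0) for each gene, with 1 point per library, 4 libraries per group; the bar beside each group is the mean ± SD, and bars for Col14a1 are clipped at 0. All col1-ACLP points for Col6a1 and Col6a2 lie below, and for Col12a1 and Col16a1 above, those of col1, while the groups overlap for Col6a3, and Col14a1 stays under 1 CPM.

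To ask what ACLP in the collagen changed, col1-ACLP was compared with col1. Col6a1 and Col6a2 were lower, Col12a1 and Col16a1 higher, and Col6a3 did not differ by the test. Among the 5 tested members, 2 rose and 2 fell at an adjusted p under 0.05, beside 9.52% of all tested genes that rose and 8.41% that fell. Only Col12a1 was also beyond 0.58 on the log2 scale, the fold threshold that the study used, and 2.61% of genes were past both thresholds upwards and 2.36% downwards. Libraries of the groups did not overlap for 2 members upwards and 2 downwards, as for 10.9% and 10.3% of all genes. Since results of this contrast were known when the genes were chosen, nothing is read from these counts. The median log2 fold change of all genes was -0.0099.

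Col6a1 encodes the α1 chain of collagen VI. Its level was 6428, 6589, 6664 and 6971 CPM in the col1 libraries, 5137, 4740, 4958 and 5038 CPM in col1-ACLP, and 5082, 5776, 5423 and 5278 CPM in col1-ACLP+SB. All libraries on ACLP, with or without the inhibitor, were below all 4 on col1. Mean Col6a1 fell by 25.4% in col1-ACLP against col1 (log2 fold change -0.42, SE 0.0374, edgeR adjusted p = 3.63e-09).

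Col6a2 encodes the α2 chain. Its level was 4153, 4255, 4106 and 4369 CPM in col1, 3180, 2927, 3017 and 3229 CPM in col1-ACLP, and 3125, 3585, 3345 and 3253 CPM in col1-ACLP+SB. Again no library on ACLP reached the lowest col1 library. Mean Col6a2 fell by 26.8% in col1-ACLP (log2 fold change -0.45, SE 0.0404, edgeR adjusted p = 4.58e-09).

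Col6a3 encodes the α3 chain, the largest of the trio, whose carboxy-terminal end is cleaved off as endotrophin. Its level was 1307, 1415, 1421 and 1492 CPM in col1, 1379, 1257, 1415 and 1562 CPM in col1-ACLP, and 1290, 1375, 1443 and 1315 CPM in col1-ACLP+SB. The 3 groups overlapped, and the highest and the lowest library were both col1-ACLP libraries. Against col1, the col1-ACLP libraries gave a log2 fold change of -0.0056 (SE 0.0530, edgeR adjusted p = 0.967), with a 95% confidence interval from -0.11 to 0.10 that leaves out falls as large as those of Col6a1 and Col6a2.

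The proportions of the chains were taken within each library. Col6a1 to Col6a2, per length, was 3.00 ± 0.0704 in col1, 3.06 ± 0.0666 in col1-ACLP and, with the inhibitor, 3.08 ± 0.0122 (SD, n = 4), and the groups overlapped. Col6a1 to Col6a3 was 12.9 ± 0.339 in col1 and 9.71 ± 0.684 in col1-ACLP, and the lowest col1 library, at 12.7, was above the highest col1-ACLP library, at 10.3. In col1-ACLP+SB it was 10.9 ± 0.502, from 10.3 to 11.5, again below every col1 library. Col6a2 to Col6a3 was 4.31 ± 0.184 in col1, 3.17 ± 0.185 on ACLP and 3.53 ± 0.173 on ACLP with the inhibitor, and its lowest col1 library (4.15) was above all 8 others. These are ratios of RNA; the proportions of the chains in protein were not measured here. The counting did not split transcripts, and with the length of the canonical transcript in place of the table's length Col6a1 to Col6a2 became 2.30, 2.34 and 2.36 in the 3 groups.

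**Figure D2:**
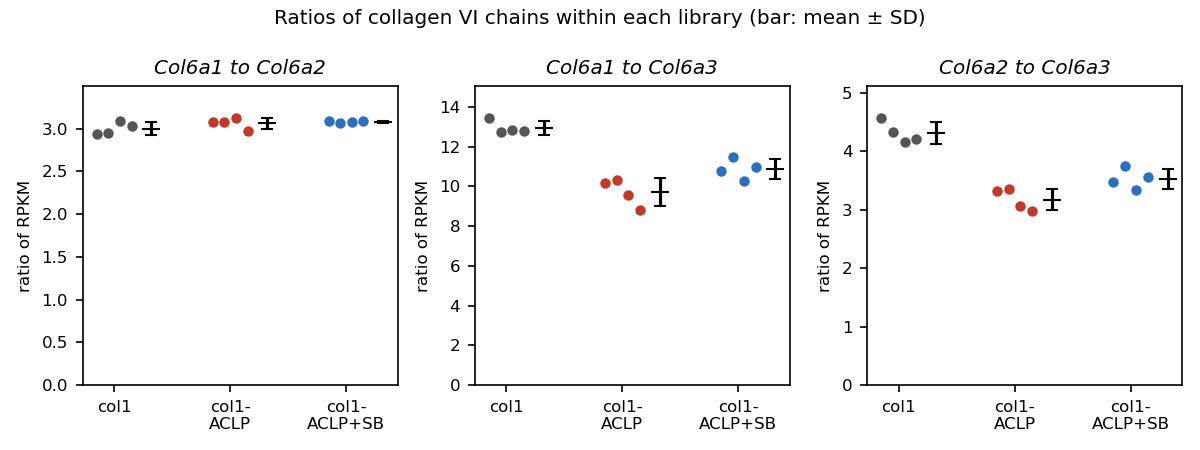
Ratio of RPKM values of collagen VI genes within each library (linear axes from 0; 1 point per library, 4 per group; bar, mean ± SD). Col6a1 to Col6a2 lies near 3.00 to 3.08 in all groups, while both ratios to Col6a3 are lower in every library on ACLP than in any col1 library.

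Col12a1 encodes collagen XII, a long fibril-associated chain that bridges fibrils to other matrix proteins. Its level was 415, 422, 465 and 424 CPM in col1, 718, 718, 803 and 880 CPM in col1-ACLP, and 596, 526, 662 and 610 CPM in col1-ACLP+SB. The 3 groups did not overlap, with col1-ACLP highest and col1-ACLP+SB between the other two. The mean rose 1.81-fold in col1-ACLP against col1 (log2 fold change 0.85, SE 0.0643, 95% confidence interval 0.72 to 0.99, edgeR adjusted p = 1.86e-10), and 3.38% of tested genes had a higher fold change. The libraries of col1-ACLP varied more than those of col1, with a coefficient of variation of 10.0% against 5.27%.

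Col16a1 encodes collagen XVI, a minor chain found on fibrils and microfibrils. Its level was 145, 137, 147 and 139 CPM in col1, 199, 182, 180 and 231 CPM in col1-ACLP, and 172, 192, 184 and 181 CPM in col1-ACLP+SB. All libraries on ACLP were above those on col1, and col1-ACLP replicate 4 was the highest, as it was for Col12a1 and Col6a3. The mean rose 1.40-fold in col1-ACLP (log2 fold change 0.48, SE 0.0634, 95% confidence interval 0.35 to 0.61, edgeR adjusted p = 2.48e-06). Col12a1 to Col16a1, per length, was 1.35 ± 0.0562 in col1, 1.75 ± 0.164 in col1-ACLP and, with the inhibitor, 1.46 ± 0.167.

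Col14a1 encodes collagen XIV, a fibril-associated collagen of differentiated tendon and skin fibroblasts. Its counts were 2, 0, 10 and 0 in the col1 libraries, 2, 10, 6 and 22 in col1-ACLP, and 7, 0, 32 and 2 in col1-ACLP+SB, 93 in all. It was thus at 0 in 3 of 12 libraries and reached at most 0.78 CPM, and the groups overlapped. With no filter the edgeR adjusted p of the 3 comparisons was 0.360, 0.567 and 0.947, so a difference was not detectable at this depth.

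The comparison of col1-ACLP+SB with col1 asks what differed from plain collagen while ALK5 was inhibited. It uses the same col1 libraries as the comparison above, so its values are given on their own. Col6a1 fell by 0.31 on the log2 scale (SE 0.0374, edgeR adjusted p = 1.65e-06) and Col6a2 fell by 0.34 (SE 0.0403, edgeR adjusted p = 9.18e-07). Col12a1 rose by 0.47 (SE 0.0640, edgeR adjusted p = 8.17e-06) and Col16a1 by 0.36 (SE 0.0633, edgeR adjusted p = 2.20e-04), while Col6a3 had a log2 fold change of -0.055 (edgeR adjusted p = 0.647). Thus 2 members rose and 2 fell, beside 4.6% of all genes that rose and 4.54% that fell, and the largest of these values, 0.47, was short of 0.58, which with the adjusted p 1.27% of genes passed upwards and 1.01% downwards. The same 4 genes had no overlap with col1, 2 in each direction, as had 6.7% of genes upwards and 6.32% downwards.

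The comparison of col1-ACLP+SB with col1-ACLP asks what the inhibitor changed on the ACLP coating. Col12a1 fell, with a log2 fold change of -0.38 (SE 0.0639, 95% confidence interval -0.51 to -0.25, edgeR adjusted p = 0.00217), and its libraries did not overlap. It was 1 member of 5 tested, beside 0.905% of genes that fell, 0.0425% that also fell beyond 0.58 and 4.52% without overlap downwards. Col16a1, at -0.12 (95% confidence interval -0.25 to 0.012, edgeR adjusted p = 0.454), did not pass the test, and without col1-ACLP replicate 4 its value was -0.037. Col6a1 and Col6a2 were at 0.12 (95% confidence interval 0.040 to 0.19, edgeR adjusted p = 0.124) and 0.11 (0.024 to 0.19, edgeR adjusted p = 0.216), and Col6a3 at -0.050 (-0.16 to 0.060, edgeR adjusted p = 0.797). For Col6a1 the call rests on the scaling: with library size alone the log2 fold change was 0.14 and the edgeR adjusted p 0.0266. Whether the response of Col12a1 to the inhibitor differed from that of Col16a1 was not tested.

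**Figure D3:**
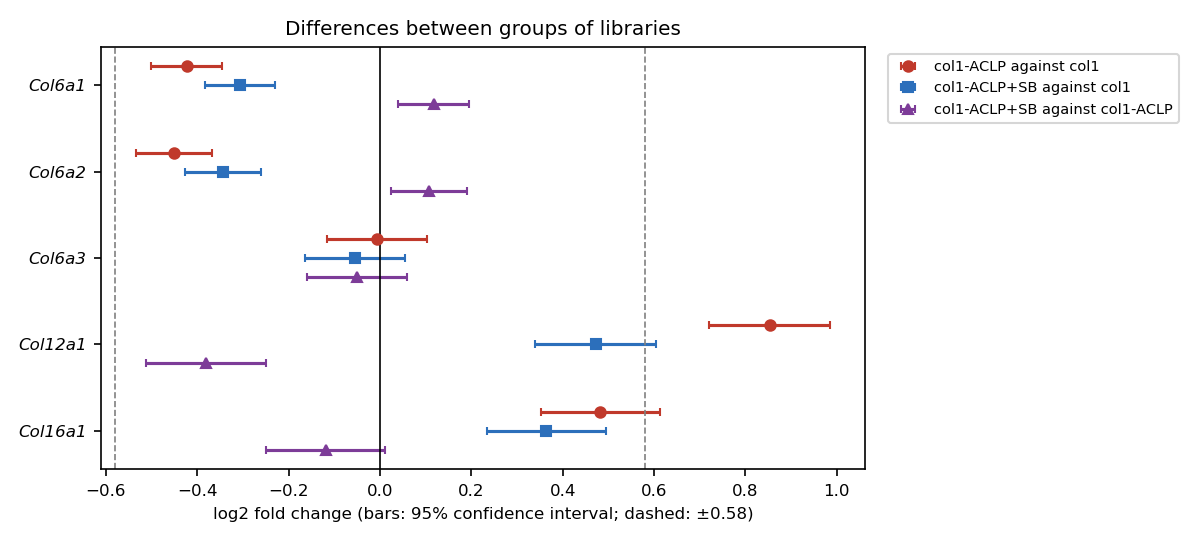
Log2 fold change of the 5 tested genes in 3 comparisons, with 95% confidence intervals from the edgeR fit to all 12 libraries; dashed lines mark ±0.58. Col12a1 in col1-ACLP against col1 (0.85) is the only value beyond a dashed line, and the 3 intervals of Col6a3 include 0.

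Over all 12 libraries, the likeness of 2 genes was measured as the root mean square difference of their log2 CPM after each gene was centred. Col6a1 and Col6a2 differed by 0.0283, against 0.183 and 0.194 for either with Col6a3, and among 9158 genes with a mean of at least 10 CPM each was the other's nearest gene. Sorbs3, which encodes the focal adhesion protein vinexin, was also close to both, at 0.0439 from Col6a1 and 0.0373 from Col6a2. For Col12a1 the nearest gene was Col5a2, a chain of the fibril-forming collagen V, at 0.0780, followed by Slc7a1, an importer of cationic amino acids, at 0.0813 and Pappa2, a protease of IGF-binding proteins, at 0.0831. For Col16a1 the nearest were Lonp1, a mitochondrial protease, at 0.0580 and Trim47 at 0.0599. The median distance to all genes was 0.223 for Col6a1, 0.236 for Col6a2, 0.376 for Col12a1 and 0.249 for Col16a1. Col12a1 and Col16a1 lay 0.194 apart, so by this measure the pair of genes that rose was less alike than the pair that fell. The measure also grows with the size of a change. The root mean square of the centred values was 0.363 for Col12a1 and 0.223 for Col16a1, against 0.186 for Col6a1 and 0.201 for Col6a2. A difference in pattern apart from size was not tested. These distances share the libraries that gave the fold changes and are a description.

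**Figure D4:**
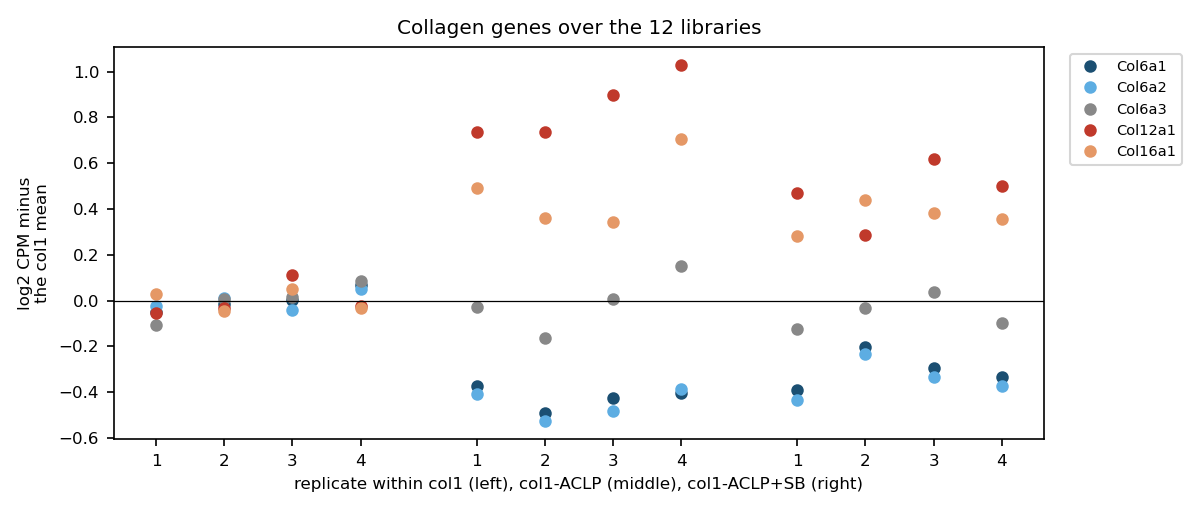
Log2 CPM of each gene minus its own col1 mean, for replicates 1 to 4 of col1, col1-ACLP and col1-ACLP+SB (replicate numbers only name libraries). Col6a1 and Col6a2 lie close together in all 12 libraries and below 0 on ACLP, Col12a1 and Col16a1 lie above 0 there, and Col6a3 stays around 0.

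Of 9 other chains of the same classes, 5 passed the filter in col1-ACLP against col1, and 1 rose (Col9a1) and 1 fell (Col20a1), beside 9.52% and 8.41% of all tested genes. Col9a1, a fibril-associated chain of cartilage, went from 13.5 to 18.8 CPM (log2 fold change 0.48, edgeR adjusted p = 0.00166), and Col20a1, another fibril-associated chain, had a log2 fold change of -0.30 (edgeR adjusted p = 0.0163). The remaining chains of collagen VI were close to absent, with totals over 12 libraries of 20 counts for Col6a4, 14 for Col6a5 and 69 for Col6a6, and Col22a1 had 4. Of the chains that can join those of Col6a1 and Col6a2, only Col6a3 was above these totals. With the inhibitor, against col1, Col9a1 rose by 0.40 (edgeR adjusted p = 0.0133), and Col20a1 had a log2 fold change of 0.0096 and did not pass the test.

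Among 10 tested fibril-forming collagens, which make the fibrils that collagens XII and XVI coat, 6 rose and 2 fell on ACLP, beside 9.52% and 8.41% of all tested genes, with a median log2 fold change of 0.73. The largest rises were those of Col2a1 (1.80), the cartilage collagen, and Col11a1 (1.11), its nucleating partner, and the falls were those of Col5a3 (-0.25) and Col11a2 (-0.19). In col1-ACLP+SB against col1-ACLP, 5 of them fell, as Col12a1 did, beside 0.905% of all tested genes, and 1 rose, beside 0.571%.

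Of 10 tested receptors that bind these collagens, 4 rose and 2 fell (9.52% and 8.41% of all tested genes), with a median log2 fold change of -0.099. Cspg4, the NG2 proteoglycan and a known receptor of collagen VI, rose from 297 to 509.6 CPM (log2 fold change 0.78, edgeR adjusted p = 1.03e-09) while Col6a1 and Col6a2 fell. Itga11, an integrin subunit for fibrillar collagen, rose by 1.48 on the log2 scale from only 0.883 CPM. Antxr1, another collagen VI receptor, fell by 0.38 (edgeR adjusted p = 7.02e-06) and Ddr2, a receptor kinase for fibrillar collagen, fell by 0.25.

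Of 15 tested proteins of fibrils and microfibrils, 7 rose and 5 fell, with a median log2 fold change of 0.18, where 9.52% of all tested genes rose and 8.41% fell. The small proteoglycans of this list, which bind collagen fibrils, went apart. Bgn, the most abundant of them in this list, rose from 3356 to 4525 CPM (log2 fold change 0.43, edgeR adjusted p = 1.17e-09) and Fmod rose by 1.34, while Lum fell by 1.76 and Dcn by 1.65. Fbn1, the fibrillin of another microfibril system, rose by 0.71. Of 20 genes for the folding, modification and cleavage of collagen chains, 13 rose and 2 fell, beside the same 9.52% and 8.41%, with a median of 0.26. P4ha1, a prolyl hydroxylase subunit, rose by 0.87, and the proteases Mmp14 (-0.49) and Bmp1 (-0.39) fell. Colgalt2 also passed the test, at mean levels of only 0.0116 CPM in col1 and 0.364 CPM in col1-ACLP. The medians of these lists stand beside that of all genes, -0.0099.

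**Figure D5:**
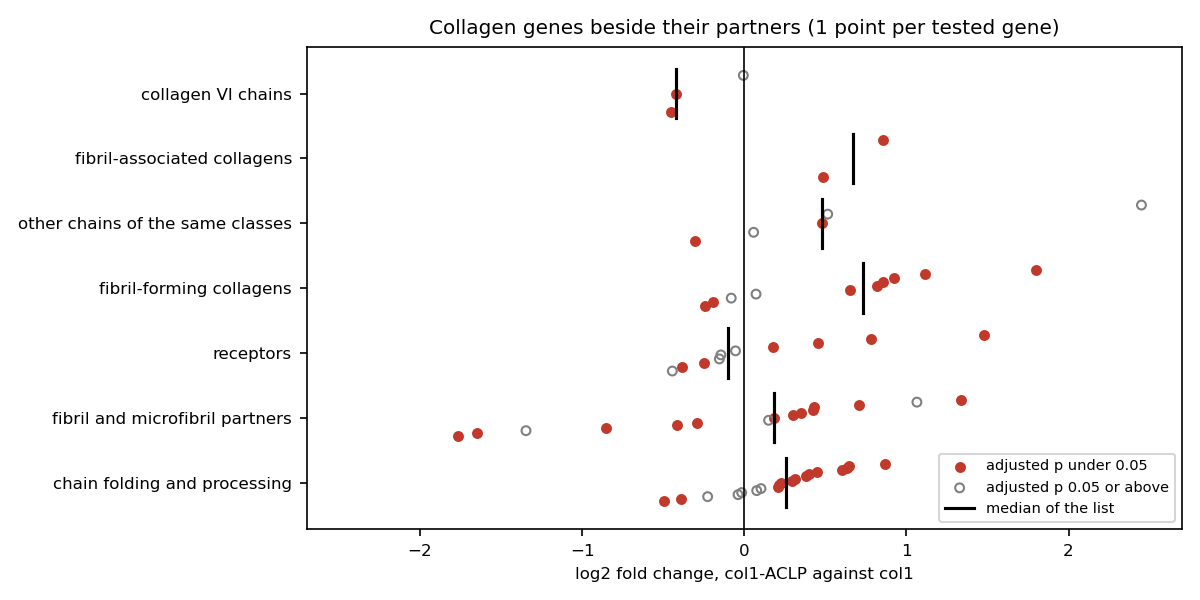
Each tested gene of 7 groups by its log2 fold change between col1-ACLP and col1 (1 point per gene; filled, edgeR adjusted p under 0.05; open, 0.05 or above; vertical bar, median of the group). 1 gene, Colgalt2, lies outside the axis, which ends at 2.7; the fibril-forming collagens and the processing genes lie mostly to the right of 0, and Col6a1 and Col6a2 to the left.

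The neighbours of each member within 500000 bases were examined after the values had been seen. Around Col6a1 and Col6a2, 14 genes were tested for each, and 2 were lower on ACLP (8.41% of all tested genes were), namely the other gene of the pair and Col18a1, which encodes collagen XVIII of basement membranes. Col18a1 had a log2 fold change of -1.27 in col1-ACLP (edgeR adjusted p = 6.45e-13) and -0.78 in col1-ACLP+SB against col1. It overlaps Slc19a1 on the opposite strand, which had a log2 fold change of 0.0065. Higher in the same stretch were Lss (0.66), S100b (0.38) and Prmt2 (0.20). The 6 tested genes around Col6a3, from -0.45 to 0.36 on the log2 scale, and the 5 around Col12a1, from -0.14 to 0.12, did not pass the edgeR test. Around Col14a1, 4 of 6 were higher, and around Col16a1, 2 of 19, beside 9.52% of all tested genes.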

How the data were processed

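Poly(A) RNA of 12 libraries (3 groups of 4, assigned from the treatment labels) was sequenced as 150-bp pairs and mapped with HISAT2 by the authors. The labels' processing notes list mm10, the paper's methods GRCm39, and the coordinates in the table match GRCm39. The authors deposited raw counts per gene, not normalized, with a gene length for each; how reads of overlapping genes or several places were counted, and the strand setting, are not given in the sources used here. Columns of other samples: none.

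The test was the quasi-likelihood F-test of edgeR 4.0.16 in R 4.3.3 (filterByExpr, TMM, glmQLFit and glmQLFTest, group as the only term, all 12 libraries), and adjusted p-values (Benjamini-Hochberg) run over 16465 genes; 40283 were dropped. "Rose" and "fell" mean an adjusted p under 0.05. CPM are TMM scaled, and RPKM divide them by the table's length. DESeq2 1.42.0 and limma 3.58.1 were alternatives. On simulated counts with doubled or halved genes, 63 of 97 tested were recovered for col1-ACLP against col1, 50 of 50 over 10 CPM. In that comparison 5 others were called, and 68 of 95 and 128 of 192 were recovered in the other 2 comparisons. Being recovered or called here also required a log2 fold change beyond 0.58. The 5 are thus no error rate for calls by the adjusted p alone. All changes of the tested members were smaller than a doubling or halving, and recovery at such sizes was not simulated. The members and lists were chosen with earlier results of these data known. Named from each list were at most the 2 highest and 2 lowest fold changes among those that passed in col1-ACLP against col1, plus genes a result turned on (Bgn, Col6a4, Col6a5, Col6a6, Col22a1, Pdgfra, other-cell markers), and, for each member with a call, the 3 genes nearest in pattern, of which some are not reported here. Depth leaves counting error small for 5 members and large for Col14a1; p-values measure the spread between libraries.

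Replicates of a group differed by 7.49 to 20.1 times the sampling noise (chi-square per degree of freedom), so none was a copy. Same replicate numbers did not pair libraries: correlations of deviations between groups lay between -0.037 and 0.036 over 12 pairs.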

Additional observations from a re-analysis of the deposited data

How the results depend on the processing

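Across 15 fold changes of the 5 tested collagen genes, 20 alternatives each were run (other size factors and filters, fewer libraries, DESeq2, limma-voom, a replicate block). Of 300 values, 295 kept their direction and their side of the threshold. In each comparison the libraries left out in turn included the 4 of the group not compared. Those do not enter the means compared, so the 300 are not equally strong checks. Col6a1 in col1-ACLP+SB against col1-ACLP passed with library size alone (0.14, edgeR adjusted p = 0.0266), which made 2 members called; over its alternatives the adjusted p ran from 0.0266 to 0.375. Col6a3, which passed under none of these alternatives, changed sign with single libraries left out, over a range from -0.059 to 0.040 in col1-ACLP against col1 and from -0.099 to 0.0053 in col1-ACLP+SB against col1-ACLP. In the latter comparison, which Col16a1, Col6a1 and Col6a2 did not pass with 1 library left out, Col16a1 ranged from -0.16 to -0.037 (nearest 0 without col1-ACLP replicate 4), Col6a1 from 0.082 to 0.14 and Col6a2 from 0.069 to 0.14 (lowest without col1-ACLP+SB replicate 2). Without 1 library, Col12a1 ranged from 0.79 to 0.89 in col1-ACLP against col1 and from -0.43 to -0.32 in col1-ACLP+SB against col1-ACLP.

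Over all genes, 243 passed in col1-ACLP+SB against col1-ACLP, but 428 with no filter and 568 with DESeq2, and 98 to 282 with 1 library left out, lowest without col1-ACLP replicate 4 (98), then without col1-ACLP+SB replicate 4 (120), col1-ACLP replicate 3 (150) and col1-ACLP replicate 1 (154). Past both thresholds there were 21, against 46 with no filter, 46 with DESeq2 and 10 to 29 with 1 library left out (10 without col1-ACLP replicate 4 and 11 without col1-ACLP+SB replicate 4). A test of the fold change itself against 0.58 (edgeR glmTreat) left 230 of 819 genes in col1-ACLP against col1, 81 of 376 in col1-ACLP+SB against col1, and 0 in col1-ACLP+SB against col1-ACLP, where 115 had an unadjusted p under 0.05; it is stricter by construction, and the cause of the other shifts was not tested. With the replicate block 2753 genes passed in col1-ACLP against col1 (2953 without), 1378 (1504) in col1-ACLP+SB against col1 and 177 (243) in col1-ACLP+SB against col1-ACLP, and it changed no call of a member; the block is a check only, since the numbers did not pair libraries.

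Levels per length depend on the length used. With canonical transcripts, an alternative added after seeing the data, col1 levels became 1625 (Col6a1), 707 (Col6a2), 155 (Col6a3), 36.4 (Col12a1) and 24.9 RPKM (Col16a1), in the same order. The design holds no inhibitor without ACLP, and Col14a1 lies under the depth needed for a test.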
